A study of Mus musculus with 4 samples.

Results

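The genes described here are 10 genes used as markers of the PDGFRA-high fibroblasts that lie directly under the gut epithelium: Pdgfra, Foxl1, Bmp3, Bmp5, Bmp7, Wnt4, Wnt5a, Nrg1, Enho and Ednrb. They were chosen by name, with earlier results of these data known, and each had 1 row among the 23284 gene rows. Messenger RNA was measured in the stroma of the mouse large intestine. Living podoplanin-positive cells were sorted, without the surface markers of leukocytes (CD45), endothelium (CD31) and epithelium (EpCAM). The 4 libraries were a C57BL/6J IL-10 KO, a C57BL/6J wild type (WT), a BALB/c Rag2 KO and a BALB/c WT, with 1 library per group. IL-10 is a cytokine that restrains inflammation, and Rag2 encodes part of the recombinase that assembles the antigen receptors of lymphocytes. The labels state no age, sex or number of animals per library. Since each group is a single library, no test between groups was made, and every difference below describes these libraries.

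Fibroblasts with high PDGFRA form a sheet along the crypts and villi of the mouse intestine, and the Foxl1-positive cells among them are also called telocytes. They are known as a source of BMP ligands, which restrain stem cell programmes and favour differentiation in the epithelium, and of WNT ligands such as Wnt5a. BMP ligands act through receptor kinases and SMAD transcription factors, and Id genes are common targets. Epithelial hedgehog signals act on these fibroblasts, where Gli1, Ptch1 and Hhip are typical target genes.

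All 10 genes were lower in the library labelled IL-10 KO than in C57BL/6J WT, a direction that 50.2% of all genes compared shared while 49.8% were higher. Of the 10, 9 were lower by 2-fold or more, against 3.82% of all genes. The lowest ratios were those of the receptor gene Ednrb, of Enho, Bmp5, Wnt4 and Bmp7, which encode secreted factors, and of the transcription factor gene Foxl1, at between 0.105 and 0.215 of their WT FPKM. Pdgfra, which gives the cells their name, was the exception, at 0.728 of its WT level. In the library labelled Rag2 KO, 8 of the 10 were lower than in BALB/c WT and 2, Wnt4 and Nrg1, were higher by a small amount (Wnt4 was lower once libraries were rescaled without small RNAs), where 50.5% of all genes were lower and 49.5% higher. Of the 8, 3 were lower by 2-fold or more, against 2.03% of all genes. Between the WT libraries, 5 of the 10 genes were lower and 5 higher in BALB/c, all by less than 2-fold and with the side of Enho depending on the scaling, where 49.3% of all genes were lower and 50.7% higher.

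Levels were taken as FPKM, fragment numbers scaled to transcript length and to library size. Levels of different genes are set side by side on this scale with a limit. The housekeeping gene Gapdh was listed at only 0.196 to 0.349 FPKM, so a low value in these files need not mean a silent gene. A log2 ratio is the difference of log2(FPKM + 1) between libraries, and a gene counts as 2-fold apart when its log2 ratio is past 1 in either direction. An FPKM ratio has nothing added, and its 95% counting interval (exact binomial, from estimated fragments) covers counting error only. The estimated depth was about 8230000 fragments in the IL-10 KO, 8550000 in C57BL/6J WT, 9480000 in the Rag2 KO and 9780000 in BALB/c WT. Fibroblast genes were abundant in all 4 libraries, with Dcn, which encodes a matrix proteoglycan, between 5544 and 6520 FPKM. The sort marker gene Pdpn had between 158 and 292.5 FPKM. The value of Il10 was 129.9 FPKM in the library labelled IL-10 KO and 3.33 in C57BL/6J WT, which goes against that label. The files give no exons, so this value cannot tell an intact transcript from a truncated one. Rag2 had 0.712 FPKM in the library labelled Rag2 KO and was listed at 0 in BALB/c WT, so neither knocked-out gene checks its label. The B cell gene Igj had 1.36 FPKM in the library labelled Rag2 KO and 428 in BALB/c WT. The Y-linked gene Ddx3y had 0.0269 FPKM in the IL-10 KO library and 16.9 in C57BL/6J WT, while Xist, which is transcribed from an inactive X chromosome, had 44.9 and 23.0 FPKM, so sex and genotype cannot be told apart in that comparison.

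**Figure D1:**
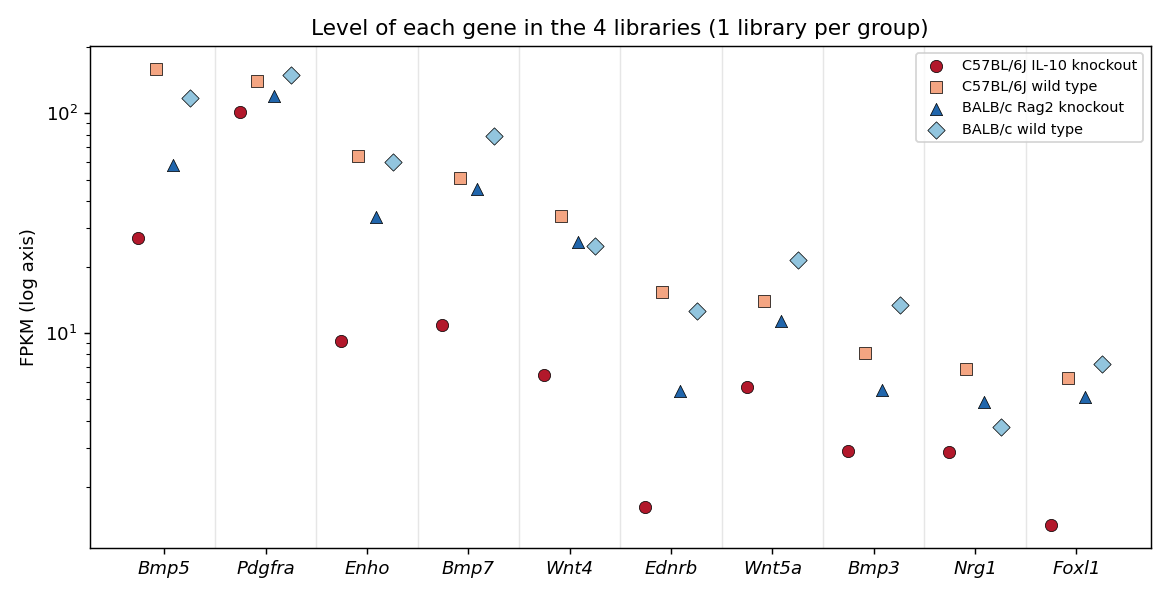
FPKM (log axis) of the 10 genes, ordered by their level in C57BL/6J wild type, with 1 point per library and no replicates. The IL-10 knockout point is the lowest of the 4 for every gene, and Pdgfra has the narrowest spread, 1.46-fold between its highest and lowest library.

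Pdgfra encodes the receptor tyrosine kinase for several PDGF ligands (chromosome 5, 75152292 to 75198215, plus strand, GRCm38). It had 102 FPKM in the library labelled IL-10 KO and 139.9 in C57BL/6J WT, and 119.95 in the Rag2 KO library and 149 in BALB/c WT. Both KO libraries were thus below the WT library of their strain, by little. The FPKM ratio was 0.728 (counting interval 0.703 to 0.754) for the IL-10 KO and 0.804 (0.780 to 0.829) for the Rag2 KO. Against C57BL/6J WT, 16.03% of all genes had a log2 ratio at or below that of Pdgfra, so it lay well within the bulk of genes.

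Foxl1 encodes a forkhead transcription factor that marks telocytes in the mouse (chromosome 8, 121127940 to 121130644, plus strand). Its level was 1.34 FPKM in the library labelled IL-10 KO, 6.27 in C57BL/6J WT, 5.09 in the Rag2 KO and 7.21 in BALB/c WT. The IL-10 KO library stood apart from the other 3, which lay close together. The FPKM ratio of the IL-10 KO to its WT was 0.214 (0.137 to 0.323), from about 28 against 136 fragments, and the log2 ratio was -1.64. For the Rag2 KO the FPKM ratio was 0.706 (0.554 to 0.890).

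The 3 BMP genes were together the largest block of transcript among the secreted factors. Their summed level was 41.0 FPKM in the library labelled IL-10 KO and 218.5 in C57BL/6J WT, and 109 in the Rag2 KO and 210.4 in BALB/c WT. Bmp5 encodes a ligand of the BMP type I and II receptors (chromosome 9, 75775364 to 75900310, plus strand). It had 27.2 FPKM in the library labelled IL-10 KO against 159.8 in C57BL/6J WT, and 58.2 in the Rag2 KO against 118 in BALB/c WT. It was the most abundant of the 10 genes in C57BL/6J WT, above Pdgfra, and came after Pdgfra in the other 3 libraries. The FPKM ratio was 0.1702 (0.158 to 0.183) for the IL-10 KO, with a log2 ratio of -2.51, and 0.493 (0.467 to 0.520) for the Rag2 KO, with a log2 ratio of -1.01.

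Bmp7, a closely related ligand gene (chromosome 2, 172868012 to 172940321, minus strand), had 10.9 FPKM in the library labelled IL-10 KO and 50.6 in C57BL/6J WT. The Rag2 KO had 45.4 FPKM and BALB/c WT had 78.7. Both KO libraries were lower than their WT, and the log2 ratio was -2.12 for the IL-10 KO and -0.78 for the Rag2 KO. Bmp3 encodes a member of the family known in mouse bone for opposing other BMPs (chromosome 5, 98854415 to 98884396, plus strand). It had 2.91 FPKM in the library labelled IL-10 KO, 8.11 in C57BL/6J WT, 5.54 in the Rag2 KO and 13.5 in BALB/c WT. The size of its difference was alike in the 2 comparisons, with log2 ratios of -1.22 for the IL-10 KO and -1.15 for the Rag2 KO, whereas Bmp5 and Bmp7 stood further apart in the IL-10 comparison. These comparisons share no library, and the difference between them has no replicates to test it on.

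Wnt4 encodes a secreted WNT ligand (chromosome 4, 137277489 to 137299726, plus strand). It had 6.45 FPKM in the library labelled IL-10 KO and 34.1 in C57BL/6J WT, with -2.24 as the log2 ratio. The BALB/c libraries were alike, at 26.0 FPKM in the Rag2 KO and 25.0 in WT, and the counting interval of that FPKM ratio, 0.953 to 1.14, held 1. Wnt4 was thus among the genes furthest apart between the C57BL/6J libraries and level between the BALB/c libraries, where its log2 ratio of 0.06 became -0.08 when libraries were rescaled without small RNAs. Wnt5a encodes a WNT ligand that signals largely without beta-catenin (chromosome 14, 28504750 to 28527448, plus strand). It had 5.71 FPKM in the library labelled IL-10 KO and 14.0 in C57BL/6J WT, and 11.4 in the Rag2 KO and 21.6 in BALB/c WT. Its log2 ratio was -1.16 for the IL-10 KO and -0.87 for the Rag2 KO, so that it moved the same way in both strains, unlike Wnt4.

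Nrg1 encodes neuregulin, a growth factor for ERBB3 and ERBB4 receptors (chromosome 8, 31814551 to 32884029, minus strand). It had 2.89 FPKM in the library labelled IL-10 KO and 6.88 in C57BL/6J WT, and 4.84 in the Rag2 KO and 3.76 in BALB/c WT. The IL-10 KO library was lower than its WT at a log2 ratio of -1.02, just past 2-fold. The Rag2 KO library was above its WT, but the counting interval of that FPKM ratio held 1 (0.958 to 1.74). Exons of Nrg1, and likewise of Pdgfra, Bmp5 and Wnt5a, also share bases with annotated noncoding genes that are not analysed here. Nrg1 has many isoforms, and the shortest matched transcript was used for its intervals.

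Enho encodes adropin, a secreted peptide known from mouse liver and brain for its part in energy metabolism (chromosome 4, 41638144 to 41640324, minus strand). It had 9.17 FPKM in the library labelled IL-10 KO and 63.8 in C57BL/6J WT, and 33.7 in the Rag2 KO and 59.9 in BALB/c WT. The level in the IL-10 KO library was the lowest and both WT libraries were close to each other. The FPKM ratio was 0.144 (0.113 to 0.181) for the IL-10 KO and 0.563 (0.494 to 0.643) for the Rag2 KO. Enho shares exon bases with Dnaic1 on the opposite strand, and the strand setting of counting is not given in the sources used here. Dnaic1 was listed at 0.991 FPKM in the library labelled IL-10 KO and 4.31 in C57BL/6J WT, and at 2.21 in the Rag2 KO and 7.90 in BALB/c WT, and its part in the Enho values was not tested.

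Ednrb encodes a receptor for endothelins, best known for its role in the neural crest cells that form the enteric nervous system (chromosome 14, 103814625 to 103844402, minus strand). It had 1.62 FPKM in the library labelled IL-10 KO and 15.4 in C57BL/6J WT, and 5.46 in the Rag2 KO and 12.6 in BALB/c WT. It had the widest range of the 10 genes, 9.48-fold between its highest and lowest library. The FPKM ratio was 0.105 (0.0707 to 0.150) for the IL-10 KO, from about 33 against 328 fragments, and 0.433 (0.349 to 0.532) for the Rag2 KO. Enteric glia also express Ednrb, and the 10 glial marker genes summed to 4.96 FPKM in the library labelled IL-10 KO, 5.24 in C57BL/6J WT, 3.49 in the Rag2 KO and 6.19 in BALB/c WT. Of the glial markers Sox2 was listed at 0 in both KO libraries and Gfra3 in the Rag2 KO, and Sox10 was between 0.123 and 0.365 FPKM, near 0 in all 4.

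RefSeq promoter sequence (GRCm38.p6) was at hand for 4 of the 10 genes, and it is shown because Bmp5, Ednrb and Wnt4 were among the genes furthest apart in the IL-10 comparison while Pdgfra was the least. Each window lies before the transcript start used for the promoter and was cut where a GENCODE exon of the gene begins, so it holds no exon base. Capitals mark GC boxes (GGGCGG on either strand). The windows are chr9:75775115-75775363 (plus strand) for Bmp5, chr14:103843702-103843951 (minus strand) for Ednrb, chr4:137277385-137277488 (plus strand) for Wnt4 and chr5:75152001-75152250 (plus strand) for Pdgfra. For Pdgfra and Ednrb this is an inner start: RefSeq also has transcripts that begin further upstream, at 75151322 for Pdgfra and at 103844508 for Ednrb, so these windows lie within the RefSeq spans of the genes. The Ednrb window also lies within the GENCODE span of the gene, which runs to 103844402.
Bmp5: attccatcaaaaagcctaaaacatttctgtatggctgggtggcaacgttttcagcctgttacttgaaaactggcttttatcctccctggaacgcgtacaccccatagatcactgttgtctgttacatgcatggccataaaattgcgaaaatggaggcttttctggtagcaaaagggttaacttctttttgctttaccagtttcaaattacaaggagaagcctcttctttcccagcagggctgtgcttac
Ednrb: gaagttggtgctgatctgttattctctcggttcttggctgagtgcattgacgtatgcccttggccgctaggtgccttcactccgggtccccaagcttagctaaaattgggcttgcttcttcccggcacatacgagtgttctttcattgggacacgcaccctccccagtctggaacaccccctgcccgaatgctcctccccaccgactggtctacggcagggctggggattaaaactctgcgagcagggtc
Wnt4: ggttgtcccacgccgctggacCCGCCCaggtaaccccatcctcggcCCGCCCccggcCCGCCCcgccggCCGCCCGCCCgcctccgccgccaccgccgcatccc
Pdgfra: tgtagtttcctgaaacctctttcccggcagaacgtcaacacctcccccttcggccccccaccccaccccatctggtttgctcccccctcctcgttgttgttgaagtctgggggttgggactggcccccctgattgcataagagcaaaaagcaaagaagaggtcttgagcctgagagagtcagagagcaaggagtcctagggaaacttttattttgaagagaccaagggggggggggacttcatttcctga

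The promoters of these genes were unlike in base composition. Over the 250 bases before the start, GC content was 42.8% for Bmp5, 56.8% for Ednrb, 85.2% for Wnt4 and 54.4% for Pdgfra, against a median of 52.4% over 32851 promoters. The 250 bases of Wnt4, which reach past its shorter printed window, held 44 CpG dinucleotides against a median of 6. The GC box was found 8 times, 2 of them overlapping, in the 250 bases of Wnt4 and not in the other 3 windows, and 32.7% of all promoters hold it. Of the 8, 5 lie in the printed window, before the first base of a GENCODE exon of Wnt4. A forkhead motif (TGTTTAC), a GLI motif (GACCACCCA), an interferon-stimulated response element core, a gamma-activated site (TTCNNNGAA) and a TATA box (TATAAA), each searched on both strands, were not found in the 4 windows. Of all promoters, 3.17%, 0.225%, 2.98%, 7.02% and 12.4% hold these letters.

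**Figure D2:**
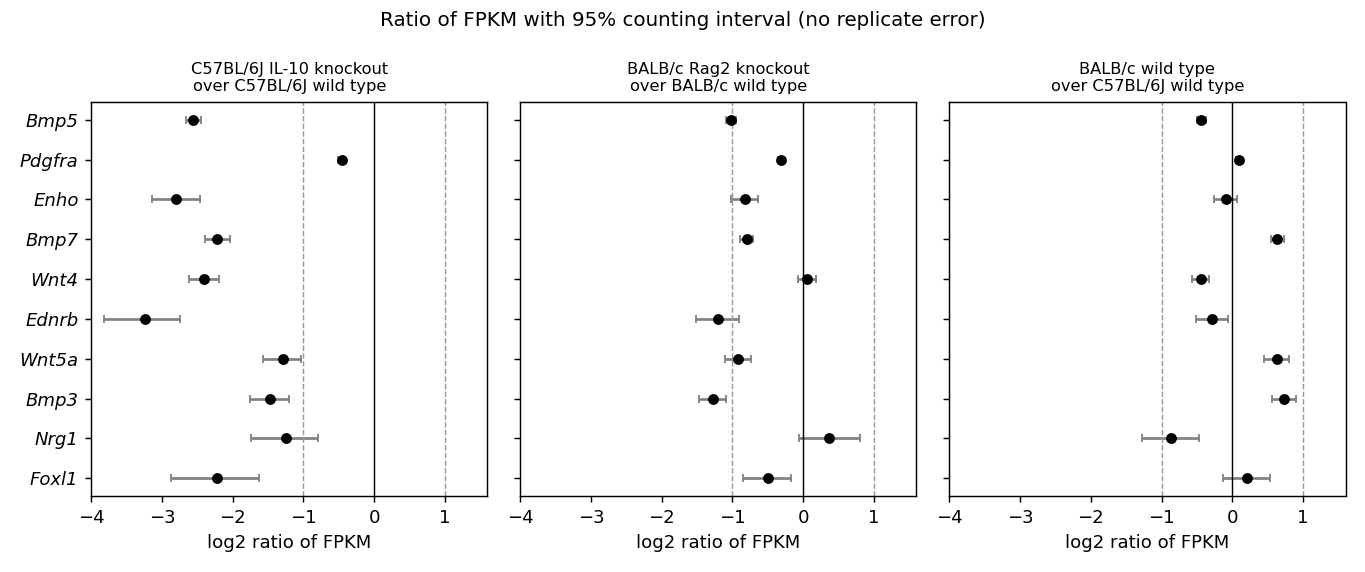
Log2 ratio of FPKM for the 10 genes in 3 comparisons, 1 library against 1, with the 95% counting interval from estimated fragments as bars and dashed lines at 2-fold. All 10 intervals lie below 0 for the IL-10 knockout, 8 of 10 for the Rag2 knockout, and 4 lie below and 4 above 0 between the wild types. The share of all genes with such intervals was not counted. With many fragments, as for Pdgfra, a small difference is enough for an interval to leave 0.

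Against all genes, the 10 stood at the low end of the IL-10 comparison. Of the 12790 genes with at least 1 FPKM in either library, 488 (3.82%) were lower and 1297 (10.1%) higher by 2-fold or more. All 10 genes passed that filter in each library, 9 were lower and 0 higher by that rule, and their median log2 ratio was -1.88 against a median of 0.00 over all genes. In 0.641% of genes the log2 ratio was at or below that median. The library labelled IL-10 KO had the lowest value of the 4 for 32.3% of 13078 genes and for 10 of the 10 described here. In these bulk samples, fewer cells of a type and less RNA per cell cannot be told apart.

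The Rag2 comparison sets a library from mice without a working Rag2 gene, by its label, against BALB/c WT. There 251 of 12336 genes (2.03%) were lower and 545 (4.42%) higher by 2-fold or more. Of the 10 genes, 3 were lower by that rule (Bmp3, Ednrb and Bmp5, with log2 ratios of -1.15, -1.08 and -1.01) and 0 higher. The median log2 ratio was -0.80, and 3.66% of genes were at or below it, against a median of 0.00 over all genes. Pdgfra and Foxl1 were lower by less than 1.5-fold.

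**Figure D3:**
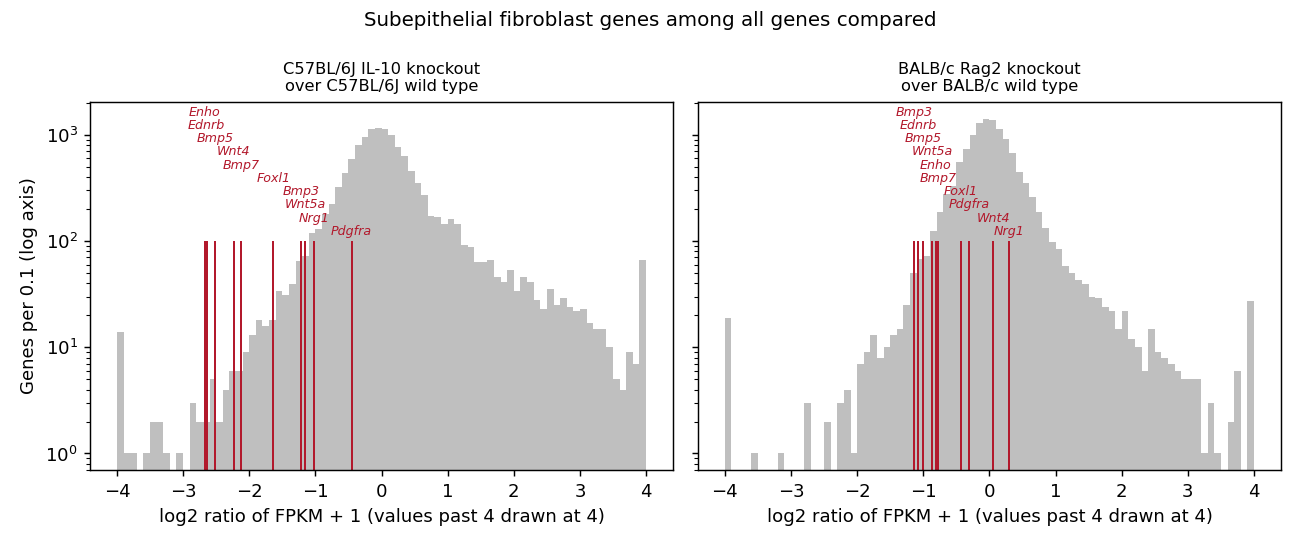
Number of genes (log axis) by log2 ratio of FPKM + 1 in steps of 0.1, for genes with at least 1 FPKM in either library, with values past 4 drawn at 4. Red lines mark the 10 genes, which reach from -2.67 (Enho) to -0.45 (Pdgfra) in the IL-10 knockout and from -1.15 (Bmp3) to 0.30 (Nrg1) in the Rag2 knockout.

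Between the WT libraries, BALB/c against C57BL/6J, 0 of the 10 genes were at least 2-fold lower and 0 higher, where 2.17% and 1.81% of 12290 genes were. Bmp3, Bmp7 and Wnt5a were higher in BALB/c, at 1.66, 1.56 and 1.55 times their C57BL/6J FPKM. Nrg1, Bmp5 and Wnt4 were lower in BALB/c, at 0.546, 0.740 and 0.733 times. For Foxl1 and Enho the counting interval of the ratio held 1, and the small log2 ratio of Enho, -0.09, became 0.09 relative to the median of fibroblast genes. The balance of the ligands also differed between these WT libraries. Bmp5 had 1.5004 times the FPKM of Bmp7 in BALB/c WT and 3.16 times in C57BL/6J WT, and Wnt4 had 1.16 times the FPKM of Wnt5a in BALB/c WT and 2.44 times in C57BL/6J WT. Xist had 0.0509 FPKM in BALB/c WT and 23.0 in C57BL/6J WT, and Ddx3y had 36.3 and 16.9 FPKM, so strain and sex cannot be told apart here. This comparison shares a library with each KO comparison.

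A ratio to Pdgfra within a library does not depend on how libraries were scaled. Relative to Pdgfra, all 9 other genes were lower in the library labelled IL-10 KO than in C57BL/6J WT, as were 19.5% of all genes, and 7 of the 9 were at or below 0.5 of the WT ratio, against 3.21% of all genes. Bmp5 stood at 26.7% of Pdgfra in the IL-10 KO and 114% in C57BL/6J WT. Enho stood at 8.996% in the IL-10 KO and 45.6% in C57BL/6J WT, and Ednrb at 1.59% in the IL-10 KO and 10.996% in C57BL/6J WT. Wnt5a and Nrg1 were the closest to Pdgfra in their change, and Nrg1 was at 0.577 of its WT ratio. In BALB/c, 7 of the 9 were lower relative to Pdgfra in the Rag2 KO, where 23.1% of all genes were, and 0 were at or below 0.5, where 2.71% of all genes were, with Bmp5 at 48.5% in the Rag2 KO and 79.2% in WT.

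**Figure D4:**
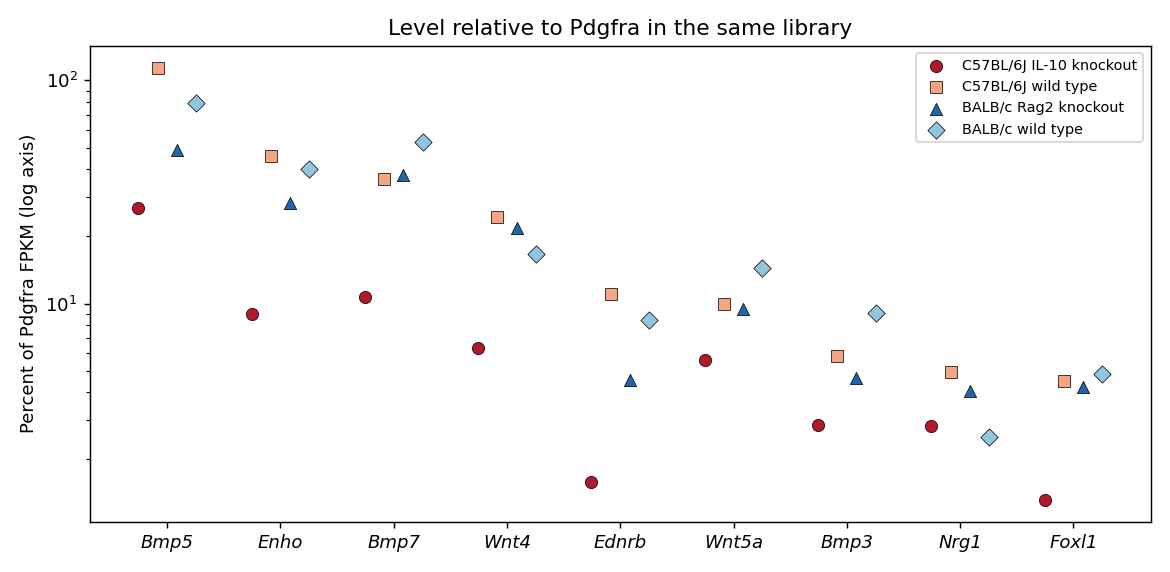
FPKM of the 9 other genes as a percent of the Pdgfra FPKM of the same library (log axis), 1 point per library. The IL-10 knockout point lies below the C57BL/6J wild-type point for every gene, while Wnt4 and Nrg1 of the Rag2 knockout lie above those of BALB/c wild type.

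Genes common to fibroblasts mostly stayed within 2-fold. A list of 17 genes that fibroblasts share (collagens, Dcn, Lum, Vim and others) summed to 16615 FPKM in the library labelled IL-10 KO and 18952 in C57BL/6J WT, and to 15687 in the Rag2 KO and 15873 in BALB/c WT. Of these 17, 2 were lower by 2-fold or more in the IL-10 KO (Col6a1 and Col6a2) and 0 higher, and the median of their log2 ratios was -0.25. Of the same 17, 0 were lower and 1 (Serpinh1) higher by that rule in the Rag2 KO, with a median of -0.05. Taken per FPKM of that list, 9 of the 10 genes were at or below 0.5 of their WT value in the IL-10 KO, against 4.78% of all genes, from 0.120 for Ednrb to 0.479 for Nrg1, and Pdgfra was at 0.831. In the Rag2 KO 3 of the 10 were at or below 0.5, against 4.56% of all genes. The list's median log2 ratio was also subtracted instead, a setting for which the share of all genes was not counted. There 6 of the 10 remained lower by 2-fold or more in the IL-10 KO and 2 in the Rag2 KO. Bmp3, Wnt5a and Nrg1 then fell short of 2-fold in the IL-10 KO, at -0.97, -0.90 and -0.76.

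Further markers of subepithelial fibroblasts were mostly lower as well. Of 14 such genes with at least 1 FPKM, 8 were lower by 2-fold or more in the library labelled IL-10 KO and 0 higher, and the median was -1.42. Frzb, Cxcl14 and Nsg1 were higher there by less than 2-fold, with log2 ratios of 0.12, 0.30 and 0.40. Cxcl14 was also slightly higher in the Rag2 KO, with a log2 ratio of 0.11. This list shares Bmp2, Frzb, Gli1, Ptch1 and Hhip with the lists below. Among them Edil3, a matrix protein gene, had 8.42 FPKM in the IL-10 KO and 48.4 in C57BL/6J WT, but 44.6 in the Rag2 KO and 52.1 in BALB/c WT. Agt, which encodes angiotensinogen, had 8.10 FPKM in the IL-10 KO and 43.7 in C57BL/6J WT, and 7.90 in the Rag2 KO and 31.7 in BALB/c WT. Edil3 was thus low in the IL-10 KO library, and Agt in both KO libraries. Col4a5, a basement membrane collagen gene, had log2 ratios of -2.54 for the IL-10 KO and -1.71 for the Rag2 KO. Col4a6 had 2.48 FPKM in the IL-10 KO and 24.3 in C57BL/6J WT, but 0.304 in the Rag2 KO and 1.77 in BALB/c WT. In the Rag2 comparison 5 of the 14 were at least 2-fold lower and 1 was higher, Nsg1, at 67.5 FPKM in the Rag2 KO and 30.8 in BALB/c WT.

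The remaining genes of the BMP ligand list, which also holds the protease gene Bmp1, went both ways. Of 9 with at least 1 FPKM, 2 were lower and 2 higher by 2-fold or more in the library labelled IL-10 KO. Bmp4, the most abundant BMP ligand gene in all 4 libraries, had 134 FPKM in the IL-10 KO and 403 in C57BL/6J WT, and 266 in the Rag2 KO and 286 in BALB/c WT. Bmp2 had 28.9 FPKM in the IL-10 KO and 78.0 in C57BL/6J WT. The 2 higher genes, Inhba and Inhbb, encode activin subunits, and Inhba had 10.8 FPKM in the IL-10 KO and 3.03 in C57BL/6J WT. In the Rag2 comparison 0 of the 9 were 2-fold apart.

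BMP receptors differed little, while some target genes were lower. Of 9 receptor and co-receptor genes, 1 was at least 2-fold lower in the library labelled IL-10 KO, the type I receptor gene Acvr1, at 17.6 FPKM against 36.2 in C57BL/6J WT, and 0 were higher. None of the 9 was 2-fold apart in the Rag2 comparison. Of 12 SMAD and target genes, 4 were at least 2-fold lower and 0 higher. Id1, a transcriptional regulator that BMP signalling induces, had 55.9 FPKM in the IL-10 KO and 174 in C57BL/6J WT, and 96.7 in the Rag2 KO and 166 in BALB/c WT. Id4 had 5.66 FPKM in the IL-10 KO and 19.2 in C57BL/6J WT, and 8.59 in the Rag2 KO and 19.6 in BALB/c WT. The inhibitory SMAD gene Smad6 had a log2 ratio of -1.27 and Smad9 one of -1.19 against C57BL/6J WT, whereas Id2 was near its WT level, at a log2 ratio of 0.08. In the Rag2 comparison 1 of the 12 was at least 2-fold lower, Id4.

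**Figure D5:**
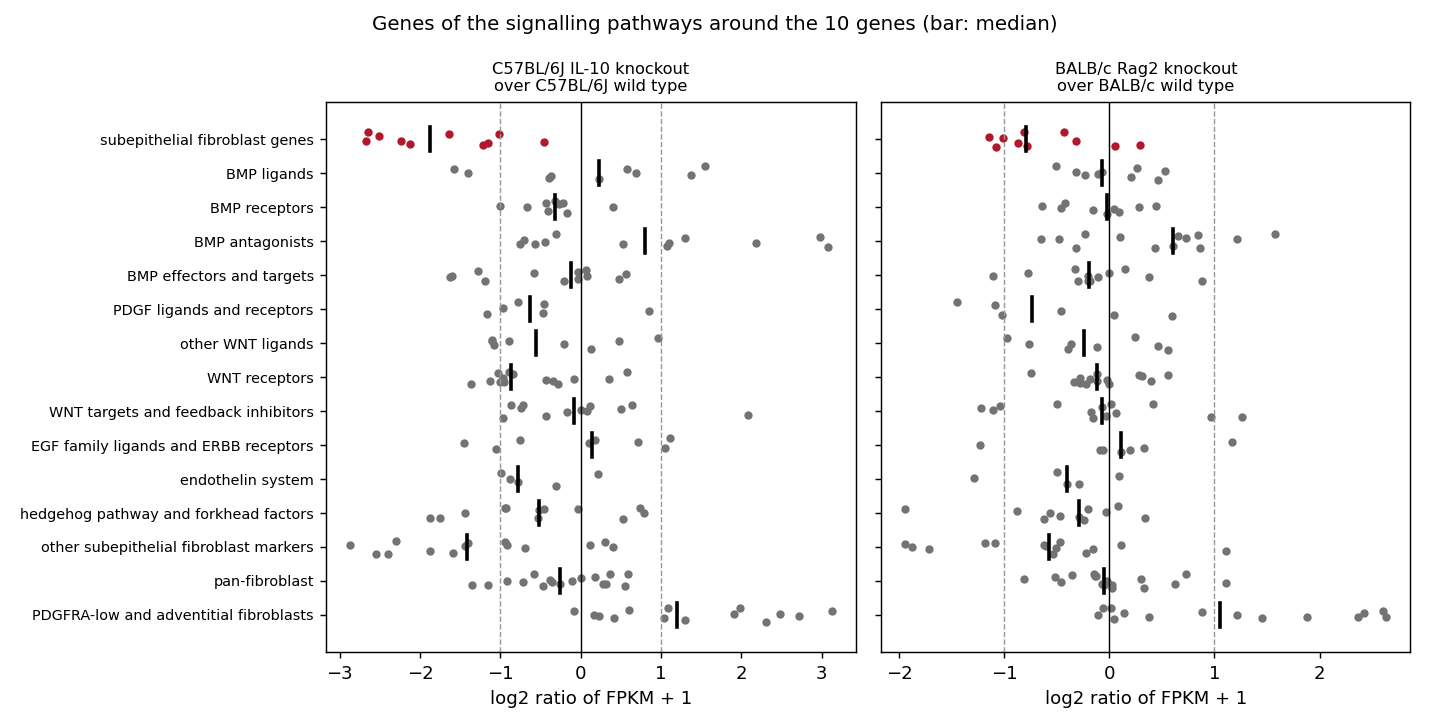
Log2 ratio of FPKM + 1 of each gene with at least 1 FPKM in either library, by list, with a bar at the list's median and dashed lines at 2-fold. The 10 subepithelial fibroblast genes (red) have a median of -1.88 in the IL-10 knockout, and BMP antagonists and PDGFRA-low and adventitial fibroblast genes have medians of 0.80 and 1.19.

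Of the other WNT ligand genes, 3 of 8 (Wnt5b, Wnt6 and Wnt16) were at least 2-fold lower in the library labelled IL-10 KO and 0 higher, and in the Rag2 KO 0 of 8 were 2-fold apart. Wnt5b had 8.42 FPKM in the IL-10 KO and 18.9 in C57BL/6J WT, and Wnt2b, the most abundant WNT ligand gene, had 73.2 and 137 FPKM in the same libraries, a log2 ratio of -0.89. Wnt11 was on the other side, at 13.9 FPKM in the IL-10 KO and 6.69 in C57BL/6J WT, within 2-fold on the log2 scale used (0.96). Of 14 WNT receptor genes, 4 were lower by 2-fold or more in the IL-10 KO (Vangl1, Fzd2, Fzd1 and Fzd8) and 0 higher, and in the Rag2 comparison 0 were 2-fold apart. Among 12 WNT targets and inhibitors 0 were at least 2-fold lower and 1 was higher, the secreted inhibitor gene Sfrp4, at 62.1 FPKM in the IL-10 KO and 13.9 in C57BL/6J WT. In the Rag2 KO 3 of 13 were lower by that measure (Wif1, Lef1 and Dkk2) and 1 was higher, again Sfrp4.

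The partners of Nrg1, Ednrb and Pdgfra gave mixed differences. Among 8 further EGF family and ERBB genes, 2 were at least 2-fold lower and 2 higher in the library labelled IL-10 KO, and 1 of 7 was lower and 1 higher in the Rag2 KO. Hbegf had 14.3 FPKM in the IL-10 KO and 30.7 in C57BL/6J WT, and Btc, which encodes betacellulin, had 3.93 and 1.37 FPKM in the same libraries. Of the neuregulin receptor genes, Erbb3 was the other one that was higher, at 2.12 FPKM in the IL-10 KO and 0.4499 in C57BL/6J WT, and Erbb4 was listed at 0 in all 4 libraries. Ednra, the other endothelin receptor gene, had 23.1 FPKM in the IL-10 KO and 43.3 in C57BL/6J WT, so that it exceeded Ednrb 14.2-fold in the IL-10 KO and 2.82-fold in C57BL/6J WT. Of 5 further genes of the endothelin system, 0 were 2-fold apart in the IL-10 comparison, and 1, the ligand gene Edn3, was lower by 2-fold or more in the Rag2 KO. Of 6 PDGF genes 1 was lower by 2-fold or more in the IL-10 KO, the ligand gene Pdgfd, at 7.95 FPKM against 19.0 in C57BL/6J WT, and 3 were in the Rag2 KO (Pdgfc, Pdgfd and Pdgfrl).

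Hedgehog targets and forkhead genes were partly lower. Of 12 such genes, 3 were at least 2-fold lower in the library labelled IL-10 KO and 0 higher. Hhip, a hedgehog antagonist and target, had 4.33 FPKM in the IL-10 KO and 18.5 in C57BL/6J WT, and 5.58 in the Rag2 KO and 24.2 in BALB/c WT. The forkhead gene Foxf2 had 10.4 FPKM in the IL-10 KO and 37.4 in C57BL/6J WT, and the receptor gene Ptch1 had 28.6 and 79.1 FPKM in the same libraries. Gli1 was within 2-fold, at 30.1 FPKM in the IL-10 KO and 58.8 in C57BL/6J WT. In the Rag2 comparison 1 of 11 was at least 2-fold lower, Hhip.

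Markers of other cell types moved with the KO libraries. All 10 leukocyte genes were at least 2-fold higher in the library labelled IL-10 KO, and their sum was 997 FPKM against 91.9 in C57BL/6J WT. In the Rag2 KO that sum was 307 FPKM against 169 in BALB/c WT, and 2 of the 10 were at least 2-fold higher. The 12 epithelial genes summed to 402 FPKM in the IL-10 KO and 107 in C57BL/6J WT, and to 169 in the Rag2 KO and 44.6 in BALB/c WT, with 12 and 11 of 12 at least 2-fold higher. The 10 smooth muscle genes were the only one of these 3 groups that was lower: 7 were lower by 2-fold or more in the IL-10 KO and 6 in the Rag2 KO, with sums of 375 FPKM in the IL-10 KO, 878 in C57BL/6J WT, 485 in the Rag2 KO and 993 in BALB/c WT. None of the leukocyte and epithelial markers was listed at 0 in any library. Of 10 blood endothelial genes 0 were 2-fold apart for either KO. All 7 lymphatic endothelial genes were lower in both KO libraries, 2 by 2-fold or more in the IL-10 KO and 0 in the Rag2 KO. They summed to 81.0 FPKM in the IL-10 KO, 137 in C57BL/6J WT, 98.2 in the Rag2 KO and 159 in BALB/c WT. Lymphatic endothelial cells carry podoplanin but also CD31, a marker that the sort excluded. Among 6 pericyte genes 1, Cspg4, was lower by 2-fold or more in each KO, and markers of enteric neurons and mesothelium summed to less than 6 FPKM in each library. The part of these cell types in the values of the 10 genes was not tested.

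The genes with the most similar pattern over the 4 libraries were sought among 8778 genes with an established symbol and at least 5 FPKM in some library. Likeness was the Euclidean distance between profiles of log2(FPKM + 1), each centred on its own mean. Closest to the mean profile of the 10 genes were Unc5b, a netrin receptor gene (distance 0.125), Shc3 (0.156), Arhgap28 (0.177), Col15a1 (0.180) and Postn (0.183), followed by Slc9a3r2, Tbx2 and Gnai1. Postn, which encodes the matrix protein periostin, had 385 FPKM in the library labelled IL-10 KO, 1544 in C57BL/6J WT, 1012 in the Rag2 KO and 1492 in BALB/c WT. Col15a1, a basement membrane zone collagen gene, had 62.1, 248, 145 and 216 FPKM in the same order. Of the 10 genes, Foxl1 lay nearest to their mean profile (0.237), and Nrg1 (1.07) and Pdgfra (1.05) lay farthest. The genes nearest to Pdgfra itself were St5, Pltp, Txnip, Bicd2, Wsb1, Ezh1, Grsf1 and Mccc1, at distances of 0.0237 to 0.0484. With 4 libraries such likeness is a description only.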

How the data were processed

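The authors deposited 1 table of FPKM per library, with 1 value per gene symbol. Per the submitters' processing notes, the tools were Cuffdiff 2.2.1, TopHat2 2.1.1, SAMtools 0.1.18 and Bowtie2 2.2.8 and the build was mm10. Library preparation used the TruSeq stranded mRNA kit, per the labels' protocols. No source used here gives the annotation, the strand setting or how libraries were scaled. Values were taken as log2(FPKM + 1), for genes with at least 1 FPKM in either library of a comparison, and at least 2-fold differences were counted (Python 3.11.15, pandas 2.3.3, scipy 1.17.1). Depth is not stated: it was estimated from the single-fragment steps of low FPKM in genes with 1 transcript of at least 1000 nt, after a length offset of 170 nt. Between 64.7% and 69.2% of those low values lay within 0.05 of a whole fragment count. Fragments of the 10 genes were then estimated from the shortest RefSeq-matched GENCODE transcript, which is the widest choice for the exact 95% intervals. PCR copies are not independent molecules, so these intervals cover counting error only. The counting was tested on simulated data that held counting error only, which cannot show how far animals or libraries of 1 group vary. Positions are GENCODE vM21.

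The genes and lists were chosen with earlier results of these data known. Named were all 10 genes, up to 4 genes per list with the largest absolute log2 ratio in the IL-10 comparison among those with at least 5 FPKM, and the 8 genes with the nearest profile. Nsg1, Inhbb, Wnt6, Wnt16, Lef1, Dkk2, Id2, Btc, Erbb3, Erbb4, Edn3, Pdgfc, Pdgfrl, Serpinh1, Bmp1, Ly6a, Dcn, Dnaic1, Gfra3, Sox2 and Sox10 were named after their values were seen. Frzb, Cxcl14, Cd34, Dpt and Clec3b were likewise named after their values were seen.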

Additional observations from a re-analysis of the deposited data

How the results depend on the processing

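With a pseudocount of 0.1 the median log2 ratio of the 10 genes in the IL-10 comparison was -2.18, and with a pseudocount of 5 it was -1.23, with 5 genes still lower by 2-fold or more for the IL-10 KO and 0 for the Rag2 KO. At a threshold of 4-fold, 5 genes were lower for the IL-10 KO (0.485% of all genes) and 0 for the Rag2 KO (0.276%). At 1.5-fold, 6 were lower for the Rag2 KO (7.65% of all genes), and between the wild types 1 was lower (6.37%) and 3 were higher (5.90%). Relative to the median of the fibroblast list, 6 genes were lower by 2-fold or more for the IL-10 KO and 2 for the Rag2 KO, and the median between the wild types was 0.18. For this setting and for the pseudocount of 5, the share of all genes past 2-fold was not counted. Of the values of single genes 179 moved by at most the half-width of their counting interval on the log2 scale and 30 by more. Of those that were 2-fold apart, 0 changed direction. Rescaling without small RNAs shifted the median of all genes by at most 0.13 on the log2 scale. After median-ratio rescaling 8 genes were lower by 2-fold or more for the IL-10 KO, since Nrg1 stood at -0.99, and 3 for the Rag2 KO. The share of all genes was not counted for that setting. No paired analysis was possible because each group has 1 library. Genes near 1 FPKM, such as Foxl1 and Ednrb in the IL-10 knockout, rest on about 28 and 33 fragments. The housekeeping gene Gapdh was between 0.196 and 0.349 FPKM in all 4 libraries, so a low value in these files need not mean a silent gene.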

Other observations

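Many genes of the fibroblasts that lie deeper than the subepithelial sheet stood on the other side of the same comparisons, while others were near their WT level. Of 14 genes of PDGFRA-low and adventitial fibroblasts with at least 1 FPKM, 9 were at least 2-fold higher in the library labelled IL-10 KO and 0 lower (median log2 ratio 1.19). In the Rag2 KO 7 were higher and 0 lower (1.05). Of all genes, 10.1% and 4.42% were that much higher in these comparisons. The abundant genes Cd34, Dpt and Clec3b had log2 ratios of 0.17, 0.23 and -0.09 for the IL-10 KO. For the Rag2 KO these were 0.14, -0.06 and -0.11. Il33, an alarmin gene, had 185 FPKM in the IL-10 KO and 32.4 in C57BL/6J WT, and 45.3 in the Rag2 KO and 11.5 in BALB/c WT. Pi16 had 502.7 FPKM in the IL-10 KO and 75.4 in C57BL/6J WT, but 133 in the Rag2 KO and 132 in BALB/c WT. C3, Ly6a and Ly6c1 belong to this list and are also known to respond to inflammatory signals.

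The BMP antagonist list shares Grem1 with the list above. Of 12 with at least 1 FPKM, 6 were at least 2-fold higher in the library labelled IL-10 KO and 0 lower, and in the Rag2 comparison 2 of 13 were higher and 0 lower. Grem1, which encodes gremlin, had 323 FPKM in the IL-10 KO and 130.5 in C57BL/6J WT, and 197 in the Rag2 KO and 84.3 in BALB/c WT. Chrdl2 had 25.9 FPKM in the IL-10 KO and 2.18 in C57BL/6J WT, but 0.707 in the Rag2 KO and 1.68 in BALB/c WT. Within a library, Grem1 stood at 11.9 times the FPKM of Bmp5 in the IL-10 KO and 0.817 times in C57BL/6J WT, and at 3.38 times in the Rag2 KO and 0.713 times in BALB/c WT. These ratios do not depend on the scaling of the libraries, and the pair was chosen after its values were seen.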
